A study of Mus musculus with 36 samples.

Results

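C1qa, C1qb and C1qc, the genes of the 3 chains of complement component C1q, were followed as 3 rows among 38942 genes in RNA-seq of sorted mouse bone marrow monocytes. They were chosen by name, with it already known that their levels in these libraries were far lower under the Irf8 cKO label. Their levels and differences are therefore given as a description, without a test. Sorting on Ly6C, a cell surface marker of monocyte subsets, gave Ly6Chi, Ly6Cint and Ly6Cneg fractions of mice with the label Irf8 conditional knockout (cKO) and of wild-type (WT) mice. Irf8 encodes a transcription factor needed to form monocytes and dendritic cells and known to hold back osteoclast formation. Osteoclast libraries (OC) were made at day 4, after culture with MCSF at 20 ng/ml and RANKL, the cytokine that drives osteoclast formation, at 40 ng/ml. Libraries called BMM were made from the sorted cells at day 0, with MCSF. Genotype, stage and subset gave 12 groups, cKO OC, WT OC, cKO BMM and WT BMM for each fraction, with 3 libraries each except WT OC Ly6Cneg and WT BMM Ly6Cneg, which had 2. The remaining sample of each of these was not analysed here. The labels name neither the Cre driver nor the age of the mice, and mice of both sexes were used.

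C1q is the recognition molecule of the classical complement pathway. Its A, B and C chains join into units with a collagen-like stalk and a globular head, and the assembled molecule binds antibody on a target, dying cells and other ligands. Bound C1q activates the proteases C1r and C1s, which cleave C4 and C2 and so lead to C3. Unlike most complement proteins, which come from the liver, C1q is made largely by macrophages and dendritic cells, where it also aids the uptake of dying cells.

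The genes lie side by side on the minus strand of chromosome 4 within 18.7 kb (mm10, GENCODE M21). C1qb (ENSMUSG00000036905), the B chain, spans 136880129 to 136886187. C1qc (ENSMUSG00000036896), the C chain, spans 136889804 to 136893065, and C1qa (ENSMUSG00000036887), the A chain, spans 136895917 to 136898803. No other annotated gene overlaps them. Their summed exon lengths are 1.04 kb for C1qa, 1.088 kb for C1qb and 1.931 kb for C1qc. Promoter windows of 300 bases, from 250 before to 50 after RefSeq's gene start, are shown for the 2 members that RefSeq's table holds (GRCm38.p6, minus strand, 5′ to 3′), because these neighbouring genes had similar patterns over the groups. The C1qb window lies at chr4:136886151-136886450 and that of C1qc at chr4:136892865-136893164. RefSeq's starts differ from those of GENCODE, which on this strand are the higher coordinates above. The GENCODE start of C1qc, 136893065, lies inside its window, so most of that window is within the GENCODE gene. Motif positions and counts below hold for RefSeq's windows only. Capitals mark GGAA or its complement TTCC, the core bound by ETS factors such as PU.1, and TGCTGA, part of the element bound by MAF factors.
C1qb: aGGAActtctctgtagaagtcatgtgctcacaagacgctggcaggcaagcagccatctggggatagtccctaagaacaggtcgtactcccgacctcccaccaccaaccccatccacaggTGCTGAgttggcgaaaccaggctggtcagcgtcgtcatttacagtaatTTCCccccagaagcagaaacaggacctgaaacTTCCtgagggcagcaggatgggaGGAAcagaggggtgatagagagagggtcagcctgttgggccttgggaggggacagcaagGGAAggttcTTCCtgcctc
C1qc: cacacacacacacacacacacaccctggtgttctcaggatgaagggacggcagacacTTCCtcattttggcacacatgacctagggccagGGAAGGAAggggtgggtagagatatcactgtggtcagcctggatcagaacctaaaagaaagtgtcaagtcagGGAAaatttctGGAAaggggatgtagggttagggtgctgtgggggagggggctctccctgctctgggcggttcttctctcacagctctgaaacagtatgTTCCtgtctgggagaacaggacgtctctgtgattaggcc
Each window held 6 GGAA cores over both strands, 3 plus and 3 minus in C1qb and 4 plus and 2 minus in C1qc. Of 32851 promoter windows of that length, 96.0% held at least 1 GGAA and 15.7% held 6 or more. TGCTGA was found 1 time in C1qb, 131 bases before the start (-131), and not in C1qc, and 19.5% of windows held it. Elements made of GGAA followed by GAAA, or GAAA followed by GGAA, with 2 bases of any kind between, at which ETS and IRF factors can bind together, were in neither window on either strand, nor were 2 copies of GAAA so spaced, which IRF factors bind. Of all windows 2.7%, 2.8% and 3.4% held these elements.

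All values below are on the deposited log2 scale, on which 3.9 stands for 0 reads, unless reads are named. The recovered reads of a library numbered 20066000 to 53890000, and 23053 to 35171 genes had reads. The labels do not say whether libraries of a group came from separate animals or cultures, so p-values rest on the spread between libraries alone, and part or all of that could be technical. A gene is called where its p in limma's fit over all genes, adjusted by Benjamini-Hochberg, is under 0.05. Irf8 itself went against the label. Its level averaged 14.23 in cKO and 13.55 in WT BMM Ly6Chi libraries (0.68 ± 0.08, SE, adjusted p = 1.07e-08, limma), and it was called higher in all 6 cKO against WT comparisons without overlap of libraries. A gene total does not show whether an exon was lost, so cKO names a label here. Sex-linked genes also divided by label. Group means of Xist, the X-inactivation RNA, were 12.24 to 13.66 in cKO and 14.01 to 15.15 in WT, and those of the Y-linked Ddx3y were 10.53 to 10.77 in cKO and 5.23 to 6.12 in WT. The mix of sexes and the genotype cannot be told apart in any cKO against WT value below. The sort labels were not borne out by Ly6c2, which encodes Ly6C, in the day 0 libraries labelled Ly6Chi. Ly6c2 was at 13.30, 12.83 and 13.74 in cKO BMM Ly6Chi libraries, against 9.86, 9.82 and 9.98 in WT (3.40 ± 0.19, adjusted p = 7.47e-14, limma). Its means in cKO BMM were 13.29 in Ly6Chi, 14.46 in Ly6Cint and 11.67 in Ly6Cneg libraries, so Ly6Cint was highest, and in WT BMM they were 9.89, 13.54 and 12.26 in the same order, so the fraction labelled Ly6Chi was lowest. Summed normalised reads of 6 classical monocyte markers were 77517.6 to 135924.5 in cKO and 38493.9 to 50633.9 in WT BMM Ly6Chi libraries. The markers were split, with 3 called higher in cKO (14.4% of all genes) and 2 lower (15.3%). On the lower side Ccr2 averaged 11.76 in cKO and 13.01 in WT. Ly6Chi, Ly6Cint and Ly6Cneg therefore name labels below, and the part of this mismatch in the Ly6Chi values was not tested. The cKO against WT differences of BMM Ly6Cint and Ly6Cneg cells are of their own group means. Their SE and calls come from a fit over all libraries, those labelled Ly6Chi among them. Whether the mismatch reaches these fractions was not tested. The Ly6Cneg label was not borne out by Ly6c2 either, since its means there (11.67 in cKO and 12.26 in WT) were above the 9.89 of WT BMM Ly6Chi. The part of this in the Ly6Cneg values was not tested. Osteoclast markers followed the stage labels: 10 of 10, among them Acp5 and Ctsk, were called higher in OC than in BMM libraries in each genotype and subset. Of all genes 6.55% to 16.4% were called higher in these comparisons.

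WT libraries labelled Ly6Chi and Ly6Cint at day 0 carried very high C1q transcripts, and the libraries labelled cKO carried very few. C1qa was at 8.26, 8.77 and 8.48 in cKO BMM Ly6Chi libraries, against 14.72, 15.03 and 15.03 in WT. C1qb was at 9.63, 9.92 and 9.39 in cKO, against 16.14, 16.35 and 16.38 in WT. C1qc was at 9.81, 10.27 and 9.80 in cKO, against 15.43, 15.62 and 15.63 in WT. Every cKO library was below every WT library, and the gap between the genotypes was many times the spread within either. The differences, cKO minus WT with the SE of the limma fit, were -6.42 ± 0.23 for C1qa, -6.64 ± 0.23 for C1qb and -5.60 ± 0.19 for C1qc. Ordered by difference among 38873 genes, C1qb was the lowest (rank 1), C1qa had rank 2 and C1qc rank 4. The deposited scale is flat at low values, so folds were taken from recovered reads. Values above 13.13, among them all C1q values of WT BMM Ly6Chi and Ly6Cint libraries, were read from a straight line. Normalised reads averaged 234.4 in cKO and 31517.5 in WT for C1qa, 677.4 in cKO and 80963.8 in WT for C1qb, and 882.3 in cKO and 48649.5 in WT for C1qc. By the difference of mean log2 reads, WT levels were 137-fold, 121-fold and 56.0-fold those of cKO, and folds below are of this kind. The transcripts were low in cKO but not absent, since single cKO BMM Ly6Chi libraries held 129 to 240 reads of C1qa, 306 to 678 of C1qb and 435 to 900 of C1qc. In bulk RNA, fewer C1q-expressing cells and less C1q RNA per cell cannot be told apart.

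**Figure D1:**
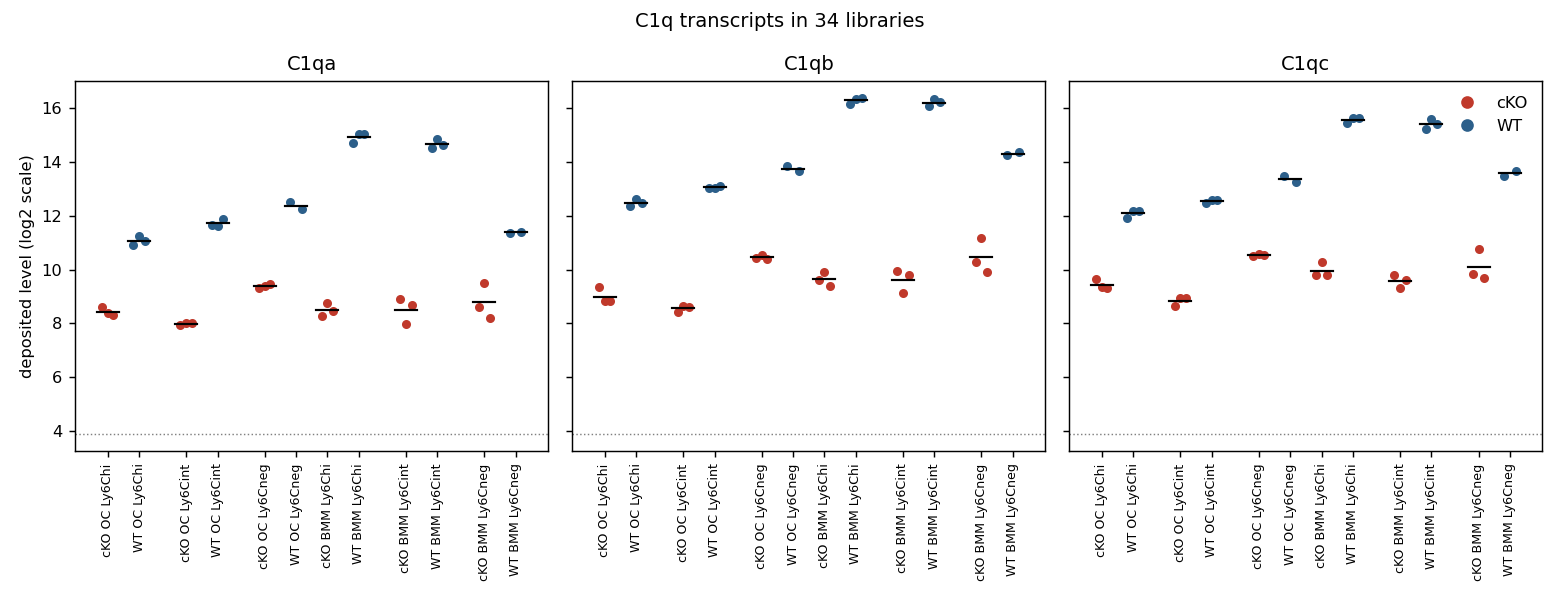
Deposited log2 level of C1qa, C1qb and C1qc in each of 34 libraries (points, cKO red and WT blue) with the group mean (line); the dotted line is the value of 0 reads. Every WT group sits above every cKO group in each panel, and WT BMM Ly6Chi and Ly6Cint libraries, at 14.53 to 16.38, are highest.

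The Ly6Cint fraction looked alike. C1qa was at 8.90, 7.97 and 8.67 in cKO BMM Ly6Cint libraries, against 14.53, 14.84 and 14.64 in WT. C1qb was at 9.95, 9.12 and 9.81 in cKO, against 16.06, 16.34 and 16.21 in WT. C1qc was at 9.79, 9.33 and 9.63 in cKO, against 15.21, 15.59 and 15.42 in WT. No library of one genotype reached the other. The differences were -6.16 for C1qa, -6.58 for C1qb and -5.82 for C1qc, and on normalised reads WT was 115-fold, 117-fold and 69.4-fold above cKO. Per kb of exon, C1qb averaged 626.9 ± 215.7 normalised reads in cKO and 69989.6 ± 6800.5 in WT (SD, n = 3 each), which put it at rank 3170 of 38942 genes in cKO and at rank 12 in WT. In Ly6Chi cells the ranks of C1qb per kb were 3244 in cKO and 9 in WT.

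The Ly6Cneg fraction of day 0 differed less. C1qa was at 8.61, 9.52 and 8.21 in cKO BMM Ly6Cneg libraries, against 11.36 and 11.40 in WT. C1qb was at 10.28, 11.18 and 9.91 in cKO, against 14.24 and 14.36 in WT. C1qc was at 9.82, 10.76 and 9.70 in cKO, against 13.48 and 13.67 in WT. The genotypes did not overlap, but cKO replicate 2, the shallowest library of all, stood above its fellows for each gene. The differences were -2.60 ± 0.26 for C1qa, -3.84 ± 0.26 for C1qb and -3.48 ± 0.21 for C1qc. These SE pool the spread over all groups, and the cKO libraries here varied more, with SD of 0.67, 0.66 and 0.58. Averaged over the members the difference was -3.31, and -3.66 without cKO replicate 2. On normalised reads WT was 8.91-fold, 15.7-fold and 12.8-fold above cKO.

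At day 4 with RANKL all 3 genes were again lower in every cKO library. C1qb was at 9.34, 8.84 and 8.82 in cKO OC Ly6Chi libraries, against 12.35, 12.64 and 12.47 in WT. It was at 8.43, 8.66 and 8.60 in cKO OC Ly6Cint libraries, against 13.02, 13.02 and 13.12 in WT. It was at 10.43, 10.56 and 10.40 in cKO OC Ly6Cneg libraries, against 13.84 and 13.67 in WT. The gap was widest in Ly6Cint cells, where the replicates of each genotype lay close together. There the differences were -3.73 for C1qa, -4.49 for C1qb and -3.69 for C1qc, and normalised reads in WT were 25.2-fold, 35.1-fold and 18.7-fold those of cKO. In Ly6Chi cells the differences were -2.64, -3.49 and -2.66 in the same order, with folds of 9.78, 15.6 and 7.93. In Ly6Cneg cells they were -2.98, -3.29 and -2.83, with folds of 10.1, 10.6 and 7.69. C1qa ranged from 7.95 to 9.47 over the 9 cKO OC libraries and from 10.91 to 12.52 over the 8 WT OC libraries. C1qc ranged from 8.66 to 10.57 over the 9 cKO OC libraries and from 11.93 to 13.47 over the 8 WT OC libraries.

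Over all 12 groups the order of the levels was set first by genotype. For each gene the lowest WT group mean, that of WT OC Ly6Chi (11.07 for C1qa, 12.49 for C1qb and 12.10 for C1qc), was above the highest cKO group mean (9.39, 10.46 and 10.53). WT BMM Ly6Chi was highest for each gene, at 14.93 ± 0.18, 16.29 ± 0.13 and 15.56 ± 0.11 (SD, n = 3), and its libraries overlapped those of WT BMM Ly6Cint, next in order, at 14.67 ± 0.16, 16.20 ± 0.14 and 15.41 ± 0.19. A drop of 1.84 to 2.29 followed, to WT BMM Ly6Cneg for C1qb and C1qc and to WT OC Ly6Cneg for C1qa. The other WT groups did not overlap their neighbours in the order. Of the cKO groups, OC Ly6Cint was lowest for each gene, at 7.99 ± 0.04, 8.56 ± 0.12 and 8.85 ± 0.16, and did not overlap the next. Between these, most neighbouring cKO groups overlapped, for C1qa all from OC Ly6Cneg down to OC Ly6Chi. Over group means the members followed each other closely. Pearson's r over 12 means was 0.979 for C1qa with C1qb, 0.986 for C1qa with C1qc and 0.997 for C1qb with C1qc. These values share libraries, depth and the split between genotypes.

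The change from day 0 to day 4 with RANKL had a different form in each genotype. No day 4 group was without RANKL, so RANKL and the days of culture cannot be told apart in any OC against BMM value. In WT Ly6Chi cells all 3 members were lower in every OC than in every BMM library. The differences, OC minus BMM, were -3.85 for C1qa, -3.80 for C1qb and -3.46 for C1qc, and normalised reads in BMM were 15-fold, 13.9-fold and 11-fold those in OC. In WT Ly6Cint cells they were -2.95, -3.15 and -2.86. In the cKO cells, low at both stages, the corresponding differences were small. In cKO Ly6Chi cells they were -0.07, -0.65 and -0.52, and only C1qa overlapped between stages. In cKO Ly6Cint cells they were -0.52, -1.06 and -0.73, again with overlap for C1qa. The WT Ly6Cneg cells set the A chain apart from the others. C1qa was at 12.52 and 12.24 in WT OC Ly6Cneg libraries, against 11.36 and 11.40 in WT BMM, a difference of 1.0 ± 0.28. C1qb was at 13.84 and 13.67 in OC, against 14.24 and 14.36 in BMM (-0.54 ± 0.28), and C1qc at 13.47 and 13.25 in OC, against 13.48 and 13.67 in BMM (-0.21 ± 0.23). None of the 3 overlapped between stages, C1qc only narrowly. In cKO Ly6Cneg cells all 3 overlapped (0.62, 0.01 and 0.44).

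**Figure D2:**
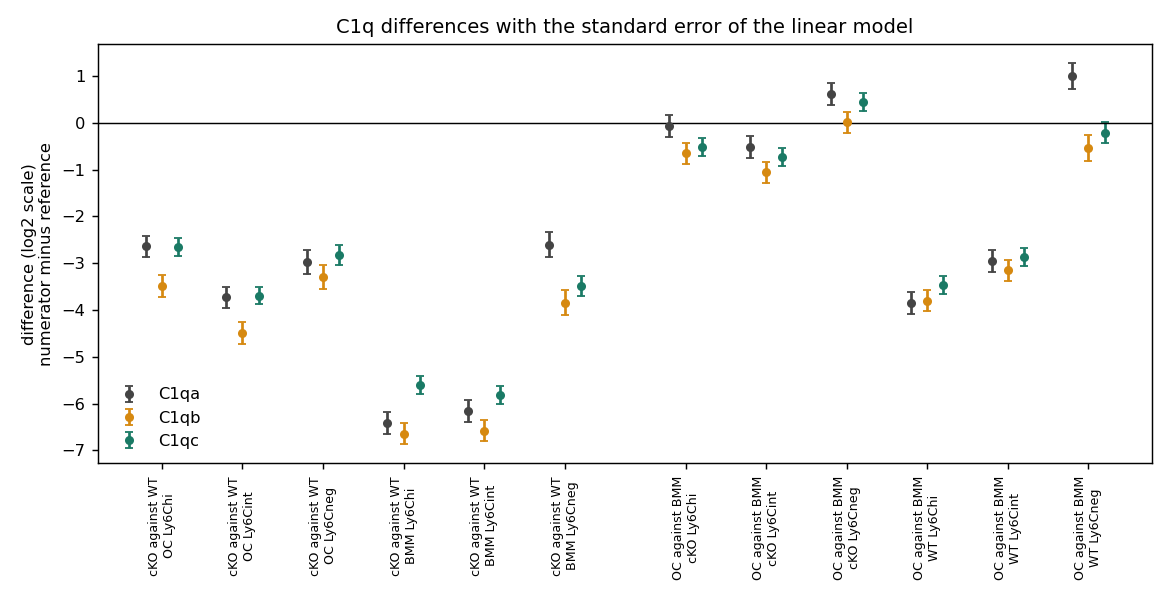
Difference (log2 scale, numerator minus reference) of each member in 6 cKO against WT and 6 OC against BMM comparisons, with the SE of the linear model. All cKO against WT values are below 0, from -6.64 to -2.60; OC against BMM values are -3.85 to -2.86 in WT Ly6Chi and Ly6Cint cells and above 0 for C1qa in WT Ly6Cneg cells.

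Since C1q is built from A, B and C chains in equal number, the balance of their transcripts was compared per kb of exon, as a log2 ratio of normalised reads. In WT libraries outside BMM Ly6Cneg, C1qb was above C1qa by 1.18 to 1.5 and C1qc was within -0.30 to 0.29 of C1qa. WT BMM Ly6Cneg libraries stood apart from them, with C1qb above C1qa by 2.84 and 2.92 and C1qc above C1qa by 1.25 and 1.40. C1qa was 9.20% ± 0.42 of the C1q reads per kb there (SD, n = 2), against group means of 20.90% to 23.27% in the other WT groups. The ratio of C1qb to C1qc showed no such shift, at 1.59 and 1.52 in WT BMM Ly6Cneg libraries and 1.54 to 1.67 in the WT BMM libraries of the other fractions. The cKO BMM Ly6Cneg libraries lay between, with C1qb above C1qa by 2.07, 1.87 and 2.23. Elsewhere C1qc was higher relative to C1qa under the cKO label. In BMM Ly6Chi cells the ratio of C1qc to C1qa was 1.2, 1.01 and 0.86 in cKO, against -0.18, -0.30 and -0.30 in WT. It was higher without overlap in cKO than in WT in 5 of 6 comparisons, BMM Ly6Cneg being the exception. In OC Ly6Chi and OC Ly6Cint cells C1qb was nearer to C1qa in cKO (0.59 to 0.94) than in WT (1.18 to 1.44). These ratios in cKO rest on 93 to 1523 reads per gene and library.

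**Figure D3:**
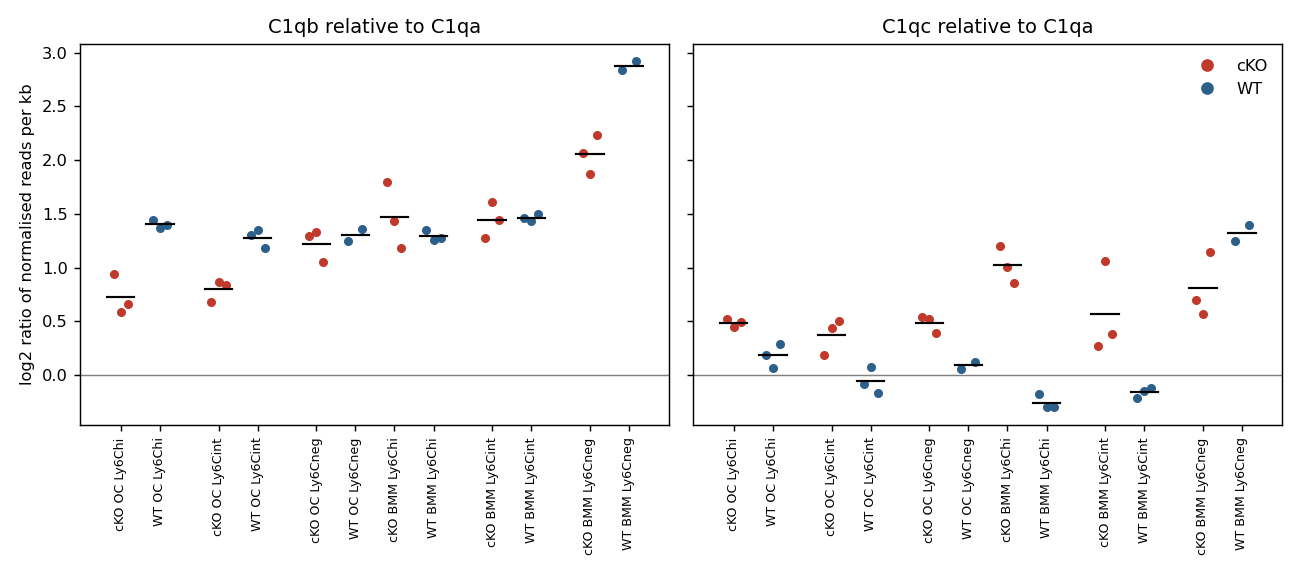
Log2 ratio of normalised reads per kb of exon, C1qb to C1qa (left) and C1qc to C1qa (right), per library (points, cKO red and WT blue) with group means (lines). WT BMM Ly6Cneg is highest in both panels, at 2.84 and 2.92 on the left and 1.25 and 1.40 on the right.

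Markers of cell types also differed between the genotypes, in ways that varied by fraction and stage. Of 20 resident macrophage markers, 14 were called lower (15.3% of all 38873 genes were) and 2 higher (14.4%) in cKO BMM Ly6Chi than in WT, among them Axl (-4.26) and Apoe (-2.50) on the lower side. Means of Lyve1 (7.61 in cKO and 5.88 in WT) and Vcam1 (9.06 in cKO and 7.36 in WT) went the other way. Summed normalised reads of the 20 were 309231.7 to 343576.1 in cKO and 1153431.4 to 1230986.5 in WT. Apoe, at 17.09 in cKO and 19.58 in WT, had the highest mean of the 20 markers in both, so it weighed most in these sums. In BMM Ly6Cint cells 14 were called lower (14.7% of all genes) and 3 higher (25%), with sums of 214769.9 to 230301.0 in cKO and 833313.4 to 894810.3 in WT. In OC Ly6Cint cells 12 were called lower (5.94%) and 3 higher (8.18%), with sums of 150493.6 to 163752.1 in cKO and 226310.1 to 228622.8 in WT. Neutrophil markers went the other way, with 9 of 9 called higher in cKO BMM Ly6Chi (14.4% of all genes) and cKO OC Ly6Cint cells (8.18%). In cKO BMM Ly6Cint cells 8 of 9 were called higher (25%). Their summed reads were 895501.8 to 1712765.0 in cKO and 92347.8 to 120931.7 in WT BMM Ly6Chi libraries. In OC Ly6Chi cells, where WT levels of C1q were 7.93-fold to 15.6-fold those of cKO, these markers differed less. There 7 macrophage markers were called higher (4.25% of all genes) and 6 lower (3.61%), with a median difference of 0.10. Their sums were 176823.9 to 199178.0 in cKO and 211270.3 to 221592.4 in WT, and neutrophil markers summed to 1860.9 to 4619.8 in cKO and 1470.4 to 1998.2 in WT. The part of these cells in the C1q differences of the Ly6Chi and Ly6Cint fractions was not tested. The Ly6Cneg fraction showed no such drop in the summed reads of macrophage markers. At day 0 their sums were 192412.1 to 200429.5 in cKO and 189848.6 to 210584.0 in WT, with 6 called higher (13.6% of all genes) and 3 lower (9.42%). On the lower side Mrc1 averaged 13.11 in cKO and 15.15 in WT. At day 4 the macrophage marker sums were 346956.2 to 367252.9 in cKO and 235869.3 to 242084.5 in WT, with 12 called higher (9.53% of all genes) and 3 lower (7.52%). Osteoclast markers also differed in OC Ly6Cneg cells, at 666866.6 to 804804.6 summed reads in cKO and 120545.4 to 132350.4 in WT, with 10 of 10 called higher in cKO (9.53% of all genes). In the same cells stromal markers summed to 14316.7 to 20407.3 in cKO and 1028.2 to 1339.3 in WT. Of these 4 of 7 were called higher (9.53% of all genes), among them the collagen gene Col1a1 (mean 13.06 in cKO and 7.89 in WT, 5.17 ± 0.42). Neutrophil markers there summed to 28455.5 to 39585.4 in cKO and 4624.0 to 6184.6 in WT, with 7 of 9 called higher (9.53% of all genes). WT BMM Ly6Cneg libraries, those with the low share of C1qa, stood apart in mast cell and basophil markers and in dendritic cell markers. The former summed to 87.8 to 147.7 reads in cKO and 3522.9 to 4534.3 in WT BMM Ly6Cneg libraries, with 6 of 7 called lower in cKO (9.42% of all genes). Dendritic cell markers summed to 545.1 to 730.7 in cKO and 2899.4 to 3371.4 in WT, with 4 of 7 called lower in cKO (9.42%). The part of any of these cells, macrophages among them, in the C1q values of the Ly6Cneg fraction was not tested. No macrophage marker was at 0 in every library of a group except Timd4 in WT OC Ly6Cint cells.

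Around C1q, 54 other genes of the complement system and of C1q receptors were followed, all of them tested. In cKO BMM Ly6Chi cells 14 were called higher and 11 lower (29.7% of all genes were called), with a median difference of -0.01 against 0 over all genes. In BMM Ly6Cint cells, where the median of all genes was 0.28 (0.05 under quantile normalization), the counts were 17 higher (25% of all genes) and 13 lower (14.7%; 39.7% in all), and in BMM Ly6Cneg cells 14 higher (13.6%) and 5 lower (9.42%; 23.1% in all). At day 4 fewer were called: 5 higher (4.25%) and 6 lower (3.61%; 7.86% in all) in OC Ly6Chi, 6 higher (8.18%) and 7 lower (5.94%; 14.1% in all) in OC Ly6Cint, and 11 higher (9.53%) and 1 lower (7.52%; 17.1% in all) in OC Ly6Cneg cells. Fitted on the compared libraries only, 5 in all were called in OC Ly6Chi and 19 in OC Ly6Cneg cells, and without cKO OC Ly6Chi replicate 1 there were 7 in OC Ly6Chi. With library weights 21 were called in OC Ly6Cint cells. These genes moved in both directions in each of these comparisons, while C1q was lower in cKO in each. In OC against BMM, 10 were higher (15.5%) and 16 lower (26.3%; 41.8% in all) in cKO Ly6Chi cells, 10 higher (16.4%) and 22 lower (32.3%; 48.7% in all) in cKO Ly6Cint cells, and 13 higher (14.5%) and 10 lower (28%; 42.6% in all) in cKO Ly6Cneg cells. With only the compared libraries 17 in all were called in cKO Ly6Chi cells. In WT cells 10 were higher (13.7%) and 18 lower (20.4%; 34.1% in all) in Ly6Chi, 9 higher (13.1%) and 16 lower (15.4%; 28.4% in all) in Ly6Cint, and 11 higher (6.55%) and 2 lower (5.69%; 12.2% in all) in Ly6Cneg cells. The genotype by stage term, which tests whether the cKO minus WT difference changed between the stages, was higher for 9 (12.1%) and lower for 10 (11.6%; 23.8% in all) in Ly6Chi, 8 (13%) and 11 (13.1%; 26% in all) in Ly6Cint, and 6 (8.58%) and 5 (8.71%; 17.3% in all) in Ly6Cneg cells, where 6 in all were called without WT BMM Ly6Cneg replicate 2.

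The other components of the classical pathway were scarce in every group. C1ra, of the protease that C1q activates, averaged at most 39.7 normalised reads per kb in any group, C4b at most 13.7, C2 at most 6.7 and Serping1, the inhibitor of C1, at most 5.6, whereas C1qb averaged 225.4 per kb in its lowest group and 74415.2 in its highest. C1ra and C1rb, C1s1 and C1s2, and C4a and C4b are near-identical pairs whose reads counting could split, so their values are uncertain. Of the 8 genes, 1 was called higher (14.4% of all genes) and 2 lower (15.3%) in cKO BMM Ly6Chi cells. In cKO BMM Ly6Cint cells 1 was called higher (25%) and 3 lower (14.7%). C4b, of the protein whose fragment marks targets downstream of C1q, fell in both (-1.34 ± 0.38 and -2.50 ± 0.38). C1rb was higher in cKO BMM Ly6Chi (1.12 ± 0.39), BMM Ly6Cint (2.04 ± 0.39) and OC Ly6Cneg cells (1.42 ± 0.43), on at most 10 reads per library.

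C3, on which all pathways converge, averaged 645.84 to 12119.6 normalised reads per kb over the groups and moved in different directions by fraction. It was higher in cKO BMM Ly6Chi (mean 13.97 in cKO and 12.30 in WT, 1.67 ± 0.23, adjusted p = 2.61e-06) and lower in cKO BMM Ly6Cneg cells (11.67 in cKO and 13.85 in WT, -2.17 ± 0.26, adjusted p = 1.08e-06), by limma, without overlap of libraries. In BMM Ly6Cint cells it was also lower (-0.93 ± 0.23), and in OC Ly6Chi cells higher (1.53 ± 0.23). Cfb, factor B of the alternative pathway, fell in cKO BMM Ly6Cint cells (5.39 in cKO and 9.15 in WT, -3.76 ± 0.30) and in cKO BMM Ly6Chi cells (-1.24 ± 0.30). Cfp, properdin, which stabilises the alternative pathway's convertase, averaged 5868.67 to 14114.4 normalised reads per kb over the groups. It was called higher in cKO BMM Ly6Cneg (14.13 in cKO and 13.61 in WT, 0.53 ± 0.11), OC Ly6Chi (13.69 in cKO and 13.30 in WT, 0.39 ± 0.10) and OC Ly6Cneg cells (0.33 ± 0.11). Its differences of 0.00 ± 0.10 in BMM Ly6Chi, -0.08 ± 0.10 in BMM Ly6Cint and 0.14 ± 0.10 in OC Ly6Cint cells were not called. The genotype by stage term of Ly6Chi cells was 0.39 ± 0.14 (adjusted p = 0.0405, limma).

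The lectin pathway begins with other recognition proteins in place of C1q. Of its 9 genes, 2 to 4 were called higher in each cKO against WT comparison, beside 4.25% to 25% of all genes over the 6 comparisons. Colec12, a scavenger receptor of the collectin family, was called higher in all 6, by 1.05 to 3.0. Fcnb, ficolin B, a product of myeloid precursors in mice, was higher by 2.79 ± 0.47 in cKO BMM Ly6Chi and by 2.19 ± 0.47 in cKO BMM Ly6Cint cells. Its libraries disagreed in the former, with an SD of 1.7 in cKO BMM Ly6Chi and of 0.06 in cKO BMM Ly6Cint. In the same fractions the neutrophil markers were higher, and their part in Fcnb was not tested. Of 7 terminal pathway genes, all but C8g averaged at most 7.8 normalised reads per kb in any group. Among 11 regulators Cd59a, which blocks the terminal pore, was called higher in cKO in 5 of 6 comparisons, all but OC Ly6Chi.

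**Figure D4:**
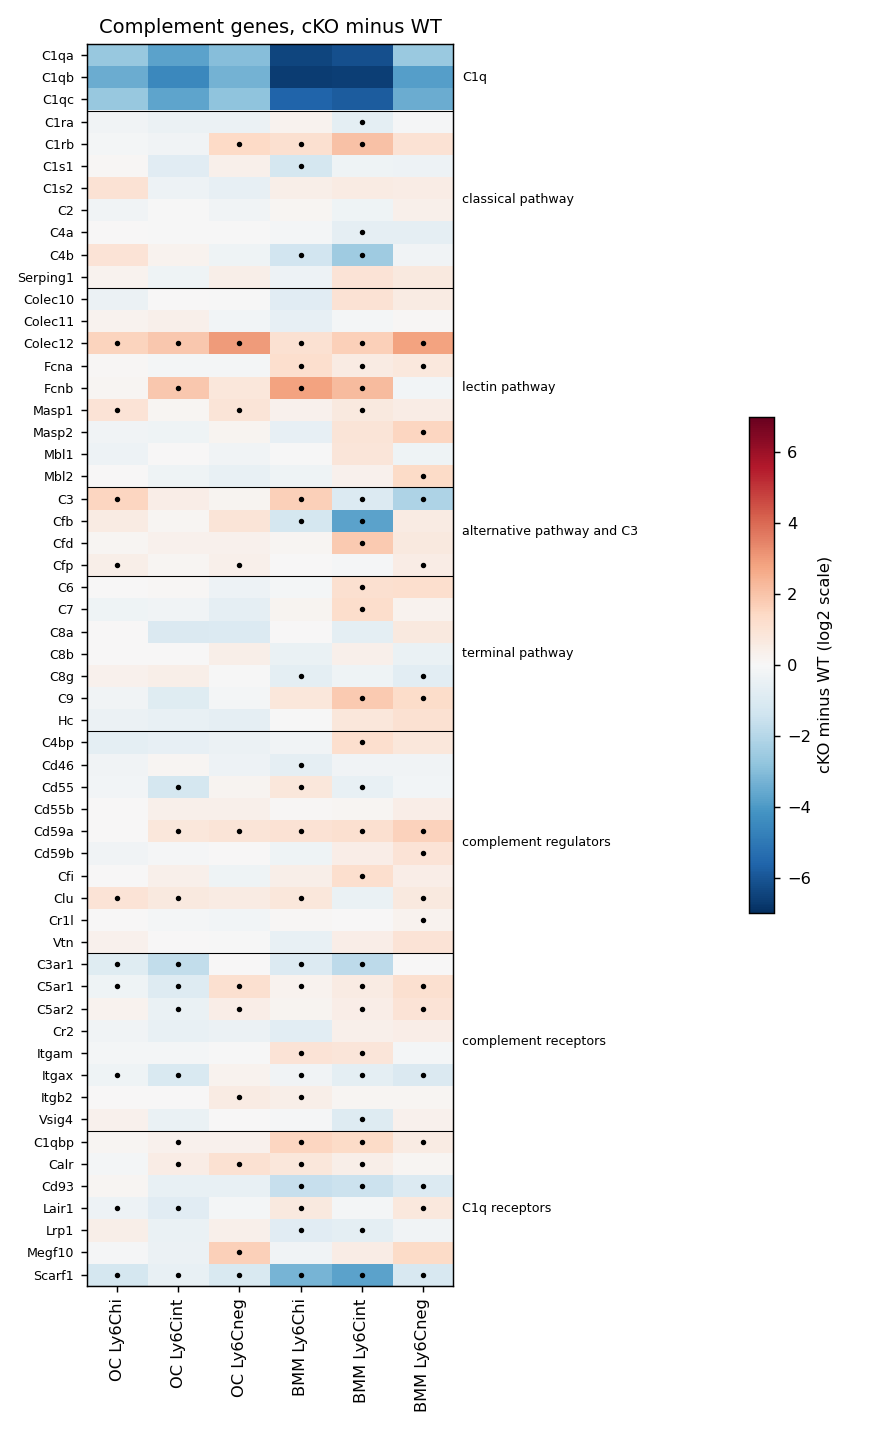
Differences, cKO minus WT (log2 scale, colour), of C1qa, C1qb, C1qc and other complement and C1q receptor genes in 6 comparisons; dots mark genes called by limma, and the members carry none because they were not tested. In BMM Ly6Cint cells the members' rows are the darkest blue (-6.58 to -5.82), and Cfb (-3.76) and Scarf1 (-3.73) come next.

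Receptors that bind C1q were called in both directions in 5 of 6 cKO against WT comparisons. Of 7, 3 were called higher (14.4% of all genes) and 3 lower (15.3%) in cKO BMM Ly6Chi, 2 higher (25%) and 3 lower (14.7%) in BMM Ly6Cint and 2 higher (13.6%) and 2 lower (9.42%) in BMM Ly6Cneg cells. At day 4, 2 were called lower (3.61%) in OC Ly6Chi, 2 higher (8.18%) and 2 lower (5.94%) in OC Ly6Cint, and 2 higher (9.53%) and 1 lower (7.52%) in OC Ly6Cneg cells. Scarf1, a scavenger receptor that takes up dying cells coated with C1q, was called lower in all 6 cKO against WT comparisons. Its levels were 8.27, 8.51 and 8.30 in cKO BMM Ly6Chi libraries, against 11.61, 11.61 and 11.68 in WT (-3.27 ± 0.10, adjusted p = 1.15e-25, limma). They were 8.43, 8.07 and 8.32 in cKO BMM Ly6Cint libraries, against 11.93, 12.01 and 12.06 in WT (-3.73 ± 0.10, adjusted p = 3.23e-27, limma). Libraries did not overlap in any of the 6. Scarf1 did not share the members' change between the stages. It was higher in OC than in BMM cells in every cKO subset (2.43, 2.87 and 1.2) and in WT Ly6Chi (0.36) and Ly6Cneg cells (1.16), but lower in WT Ly6Cint cells (-0.32), all called. Cd93, once described as a C1q receptor of phagocytes, was lower in cKO BMM Ly6Chi (-1.62), Ly6Cint (-1.49) and Ly6Cneg cells (-0.96). C1qbp, a largely mitochondrial protein that binds the globular heads, was higher there by 1.53, 1.36 and 0.56. Calr, calreticulin, which binds the collagen-like stalk and works with the receptor Lrp1, was higher by 0.78 and 0.43 in cKO BMM Ly6Chi and Ly6Cint cells. Among 8 complement receptors, C3ar1, the receptor of the C3a fragment, was lower in cKO Ly6Chi and Ly6Cint cells at both stages (-0.96 and -1.81 in BMM, -0.84 and -1.71 in OC).

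Factors described as regulators of C1q genes were measured beside them. In human cells PU.1 (Spi1) and IRF8 have been described at the promoter of the B chain gene. Irf8 is 1 of the 12 listed. Of 12 such factors, 8 were called lower (15.3% of all genes) and 1 higher (14.4%) in cKO BMM Ly6Chi cells, 9 lower (14.7%) and 1 higher (25%) in BMM Ly6Cint, and 6 lower (9.42%) and 3 higher (13.6%) in BMM Ly6Cneg cells. Maf, a transcription factor expressed in tissue macrophages, was lower in cKO BMM Ly6Chi (-0.73) and Ly6Cint cells (-1.2), but higher in BMM Ly6Cneg (1.25) and in all OC fractions (1.2, 0.56 and 0.28). The part of Maf or of the other factors in the C1q differences was not tested. In cKO BMM Ly6Cint cells Irf1, an interferon-response factor (-2.30 ± 0.08), Spic, a factor of iron-recycling macrophages (-2.39 ± 0.13), and the liver X receptor gene Nr1h3 (-2.15 ± 0.09) were lower. Rxra, a partner of nuclear receptors, was lower in cKO BMM Ly6Chi cells (-1.55 ± 0.10). Spi1 was not called in BMM comparisons (-0.09 to 0.09). At day 4, 7 were called higher (4.25%) in cKO OC Ly6Chi, 5 higher (8.18%) and 4 lower (5.94%) in OC Ly6Cint, and 8 higher (9.53%) and 1 lower (7.52%) in OC Ly6Cneg cells. In OC against BMM of WT Ly6Chi cells, where the members differed by -3.85 to -3.46, 9 of the 12 were called lower (20.4%) and 2 higher (13.7%), with Maf at -3.89, Irf8 at -3.45 and Rxra at -2.48. In WT Ly6Cneg cells the same differences were 0.18, -0.86 and -0.62, and Maf was not called.

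Other genes whose proteins carry a C1q-like globular domain were listed beside the C1q chains. Of 26 listed, 25 were tested and C1qtnf5 was not analysed here. In cKO BMM Ly6Chi cells 2 were called higher (14.4% of all genes) and 4 lower (15.3%), with a median difference of 0.00. The counts were 5 higher (25%) and 2 lower (14.7%) in BMM Ly6Cint and 6 higher (13.6%) and 3 lower (9.42%) in BMM Ly6Cneg cells. At day 4, 1 was called lower (3.61%) in OC Ly6Chi, 3 lower (5.94%) in OC Ly6Cint, and 2 higher (9.53%) and 2 lower (7.52%) in OC Ly6Cneg cells. C1qtnf6 was lower in 5 of 6 cKO against WT comparisons (-1.27 in BMM Ly6Cint to -0.49 in OC Ly6Cint cells). It differed by -0.34 ± 0.13 in OC Ly6Chi cells, where it was not called. C1qtnf12 was higher in cKO in the 3 BMM fractions (0.50, 0.51 and 0.64) and lower in OC Ly6Cint (-0.50) and OC Ly6Cneg cells (-0.51).

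Genes beside the cluster showed no drop of that size. Ephb2, 44.1 kb below it, and Epha8, 30.6 kb above it, both ephrin receptor genes, were not called in the cKO against WT comparisons of BMM cells, with differences of -0.09, 0.09 and 0.37 for Ephb2 and 0.21, 0.00 and -0.27 for Epha8. Group means were 4.39 to 7.62 for Ephb2 and 3.9 to 5.02 for Epha8, so both had low levels. Zbtb40, a zinc finger gene 80.9 kb above the cluster, was well expressed (9.16 to 10.28) and was lower in cKO in the 3 BMM fractions (-0.97, -0.97 and -0.84), but not in the OC fractions (0.16, 0.02 and 0.10).

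The genes most like C1q were sought by Pearson correlation of the 12 group means with the mean of the members, among 8270 genes above the median level with a span of at least 2. The 10 highest were 2610035D17Rik (r = 0.975), Naip3-ps1 (0.972), Ppfia4 (0.967), Skint3 (0.966), Eps8l1 (0.962), Naip6 (0.962), Pgap1 (0.958), Kif5c (0.954), Ly86 (0.953) and Hpgd (0.951). The next gene reached 0.949. Most spanned less than C1q, with slopes of 0.32 to 0.65 against the members' mean. In cKO groups 2610035D17Rik (4.53 to 5.69), Naip3-ps1 (3.9 to 4.71) and Skint3 (4.21 to 5.11) were near the value of 0 reads, which limits their slopes. Ly86 (0.96), which encodes MD-1, the partner of the Toll-like receptor homologue RP105, and Hpgd (0.85), the enzyme that inactivates prostaglandins, moved by nearly as much. Ly86 averaged 7.43 in cKO BMM Ly6Chi and 12.91 in WT libraries, and Hpgd averaged 6.82 in cKO and 12.85 in WT. Naip3-ps1 and Naip6 belong to a family of near-identical copies, so their reads are uncertain. With rank correlation 4 of these 10 stayed among the 10 highest, so the list depends on the measure.

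**Figure D5:**
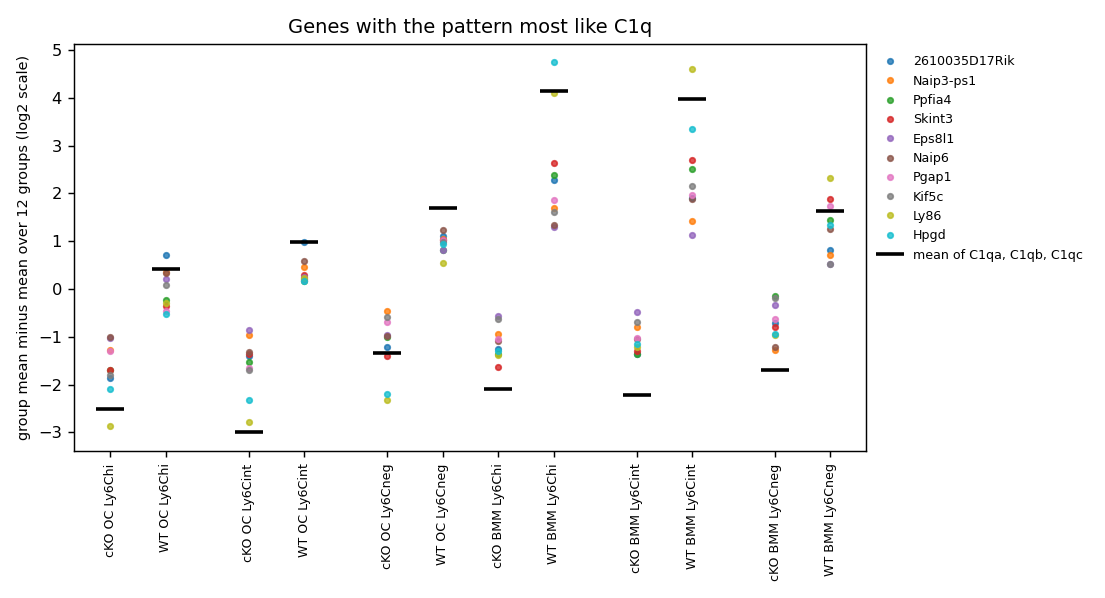
Group mean minus the mean over 12 groups (log2 scale) of the 10 genes most like C1q (points) and of the mean of C1qa, C1qb and C1qc (bars). Every bar of WT lies above every bar of cKO, and Ly86 and Hpgd follow the bars with slopes of 0.96 and 0.85.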

How the data were processed

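RNA-seq of 34 libraries was used. The deposited table holds values on a log2 scale, already normalised by the authors. How reads were counted and transformed, and whether by strand, is not stated here by any label or header. Per the submitters' processing notes, HISAT2, deepTools, DESeq2, bcl2fastq 2.17.1, CASAVA 1.8.4 and the mm10 build were used, with no roles given. Low values form steps of 1 read. Following these steps up to 13.13 gave whole reads within 0.25 for 100.0% of 139983 distinct values; higher values (1.78%) were read from a straight line. Normalised reads are these reads divided by relative depth, which differed 2.47-fold between libraries.

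Genes above 4.78 in at least 3 libraries (38873, all 3 members among them) were fitted with limma 3.58.1 in R 4.3.3 (12 group means, 22 residual degrees of freedom, trended robust prior, Benjamini-Hochberg within each comparison). Called means an adjusted p under 0.05. All 38942 identifiers matched GENCODE M21. The members, lists and tests were chosen with earlier results of these data known. The rule for naming allowed up to 3 called genes per list and comparison, Irf8, 10 genes like C1q, 3 neighbours a side and markers. Genes outside it (Cfp, Spi1, C2, Serping1, C8g, C1qtnf12 in some comparisons) were chosen after their values were seen. Some listed genes are not reported here by name, though counts over lists include them. The fit was tested on simulated data. Alternatives were other filters, scalings, priors and weights, only the compared libraries, each library left out and, added after seeing the data, recovered reads and voom.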

Additional observations from a re-analysis of the deposited data

Results flagged for a closer look

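C1qa was higher in every OC than in every BMM library of WT Ly6Cneg cells (difference 1.0), while it was lower in every OC library of WT Ly6Chi and Ly6Cint cells. This difference between fractions was not tested.

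The cKO minus WT difference changed between stages for 6 complement genes given here, among others called, by the genotype by stage term of limma (OC difference minus BMM difference). In Ly6Chi cells 23.8% of all genes were called for this term, and Fcnb (-2.63 ± 0.67, adjusted p = 0.00411) differed between genotypes by 0.16 in OC and 2.79 in BMM, C4b (2.29 ± 0.54, adjusted p = 0.00102) by 0.95 in OC and -1.34 in BMM. In Ly6Cint cells (26% called), Cfb (3.89 ± 0.43, adjusted p = 1.69e-09) differed by 0.14 in OC and -3.76 in BMM, and Scarf1 (3.19 ± 0.14, adjusted p = 4.02e-20) by -0.54 in OC and -3.73 in BMM. In Ly6Cneg cells (17.3% called), C3 (2.37 ± 0.37, adjusted p = 3.88e-05) differed by 0.20 in OC and -2.17 in BMM, and Mbl2 (-1.83 ± 0.58, adjusted p = 0.025) by -0.51 in OC and 1.32 in BMM. Mbl2 had at most 12 reads in any library, and Fcnb had an SD of 1.7 over the cKO BMM Ly6Chi libraries.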

How the results depend on the processing

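The direction of the members' mean difference was kept under every alternative run, except OC against BMM in WT Ly6Cneg cells, whose value was near 0 (0.08; -0.03 to 0.19 with a library left out). On the log2 of recovered normalised reads the cKO minus WT differences were larger, at -6.61 in BMM Ly6Chi, -6.61 in BMM Ly6Cint, -3.60 in BMM Ly6Cneg, -3.41 in OC Ly6Chi and -4.67 in OC Ly6Cint cells (as deposited -6.22, -6.19, -3.31, -2.93 and -3.97), and OC minus BMM in cKO Ly6Cint cells was -1.05 (-0.77). With single libraries left out, the cKO minus WT mean was -3.66 to -3.06 in BMM Ly6Cneg cells and OC minus BMM in cKO Ly6Cneg cells was 0.10 to 0.71 (0.35 with all), the outermost value of each without cKO BMM Ly6Cneg replicate 2. Fitted on the compared libraries only, complement genes called for cKO against WT were 5 in OC Ly6Chi (11) and 19 in OC Ly6Cneg (12), and for OC against BMM 17 in cKO Ly6Chi (26). Library weights gave 21 in OC Ly6Cint cells (13). Leaving out libraries gave 7 to 10 in OC Ly6Chi cells (7 without cKO OC Ly6Chi replicate 1) and 6 to 13 for genotype by stage in Ly6Cneg cells (6 without WT BMM Ly6Cneg replicate 2; 11 with all). Rank correlation kept 4 of the 10 genes like C1q. The cause of these changes was not tested. Of 5720 recomputed values of 387 calls of named genes, 346 lost the call and 0 reversed. The settings that lost the largest numbers were only the compared libraries (48) and quantile normalization (42), and the rest were spread over other settings. Quantile normalization moved the median of all genes, for example to 0.05, against 0.28 as deposited, in cKO against WT of BMM Ly6Cint cells. Genes at 1 to 3 reads are near the floor and their differences are understated. No paired analysis was possible because the serial numbers in the sample titles are unique and pair no libraries.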
